A study of Sus scrofa with 4 samples.

Results

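The growth hormone receptor and the insulin-like growth factor (IGF) system were examined in the ileum, where the small intestine ends, of suckling piglets with low and with high weight gain. The members were every non-control array probe whose RefSeq transcript belongs, by the NCBI gene table, to the pig genes *GHR*, *IGF1*, *IGF2*, *IGF1R*, *IGF2R*, *IGFBP2*, *IGFBP3* or *IGFBP5*. This gave 14 of 43603 probes, for 7 of the 8 genes, since the rule found no probe for *IGF2R*. *IGF2* had 5 probes, *GHR*, *IGF1R* and *IGFBP2* had 2 each, and *IGF1*, *IGFBP3* and *IGFBP5* had 1 each.

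The low-gain group had 2 samples, each a pool of RNA from 2 piglets, and the high-gain group had 2 samples, each a pool from 3 piglets. All piglets were 16 days old, fed from lactating sows, and born to Yorkshire × Landrace sows inseminated with Duroc semen. Every sample was read on its own 1-colour (Cy3) pig microarray, and a letter, a or b, tells the arrays of a group apart. The groups follow the sample labels, which give weight gain, while the series' design note refers to weight at birth. Nothing says whether a and b were separate pools, so the p-values reflect how far these arrays differ, and that spread may be technical. Since slices of whole ileum were used, fewer cells of a type and less RNA per cell cannot be told apart.

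Growth hormone from the pituitary acts through its receptor, GHR, which signals by the kinase JAK2 and the transcription factor STAT5, and in the liver this raises IGF1. IGF1 and IGF2 bind the receptor kinase IGF1R, which signals through the PI3K-AKT and RAS-MAPK arms, whereas IGF2R takes up IGF2 and carries it to the lysosome. The IGF-binding proteins hold the IGFs in blood and tissue and can hinder or prolong their action. In the intestine, IGF1 and IGF2 come largely from cells of the mesenchyme and act as growth factors for the mucosa and its muscle.

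By the flag of the scanner software, between 74.96% and 77.56% of non-control spots exceeded background well on each array, and no spot was saturated. Repeat spots of 1 probe had a median SD of 0.146 (log2) on low-gain array a, against 0.0901 to 0.0999 on the other 3 arrays. The epithelial markers *FABP6*, which binds bile acids in ileal enterocytes, *FABP2* and *EPCAM* were detected well over background on all 4 arrays. The hepatocyte markers *ALB*, *TF* and *SERPINA1* carried the flag on all 4 arrays too, so it does not test the label of ileum.

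No member probe differed between low and high gain past the test. Of the 14 probes, 0 had a limma adjusted p below 0.05 (adjusted p from 0.384 to 0.929), where 0.24% of all 33265 tested probes passed. The count was also 0 at an unadjusted p below 0.05, a level reached by 18.4% of all tested probes, and 0 with the variance prior following signal intensity, where 3.76% of all probes passed. The mean was higher in low gain for 9 member probes and lower for 5, where 52.7% of all tested probes were higher, and the log2 differences ran from -0.42 to 0.21. The 14 probes all exceeded background well on each of the 4 arrays, so that every difference was measured on both sides.

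In the fit reported here, only large differences passed the test, the smallest anywhere on the array being 1.49 on the log2 scale, or 2.81-fold. With the variance prior following signal intensity, differences down to 0.34 passed, none of them of a member probe. The 95% intervals of the fit, which were not adjusted for the number of probes, lay within a 2-fold change in either direction for 13 of the 14 member probes, and all 14 included 0. The exception was the dimmer probe of *IGF1R*, whose interval reached a level 2.22-fold lower in low gain. The normalised level used throughout is the log2 processed signal of the spot minus the 75th percentile of its array, so that 0 stands for that percentile, and a level of 1 probe is not comparable with that of another.

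**Figure D1:**
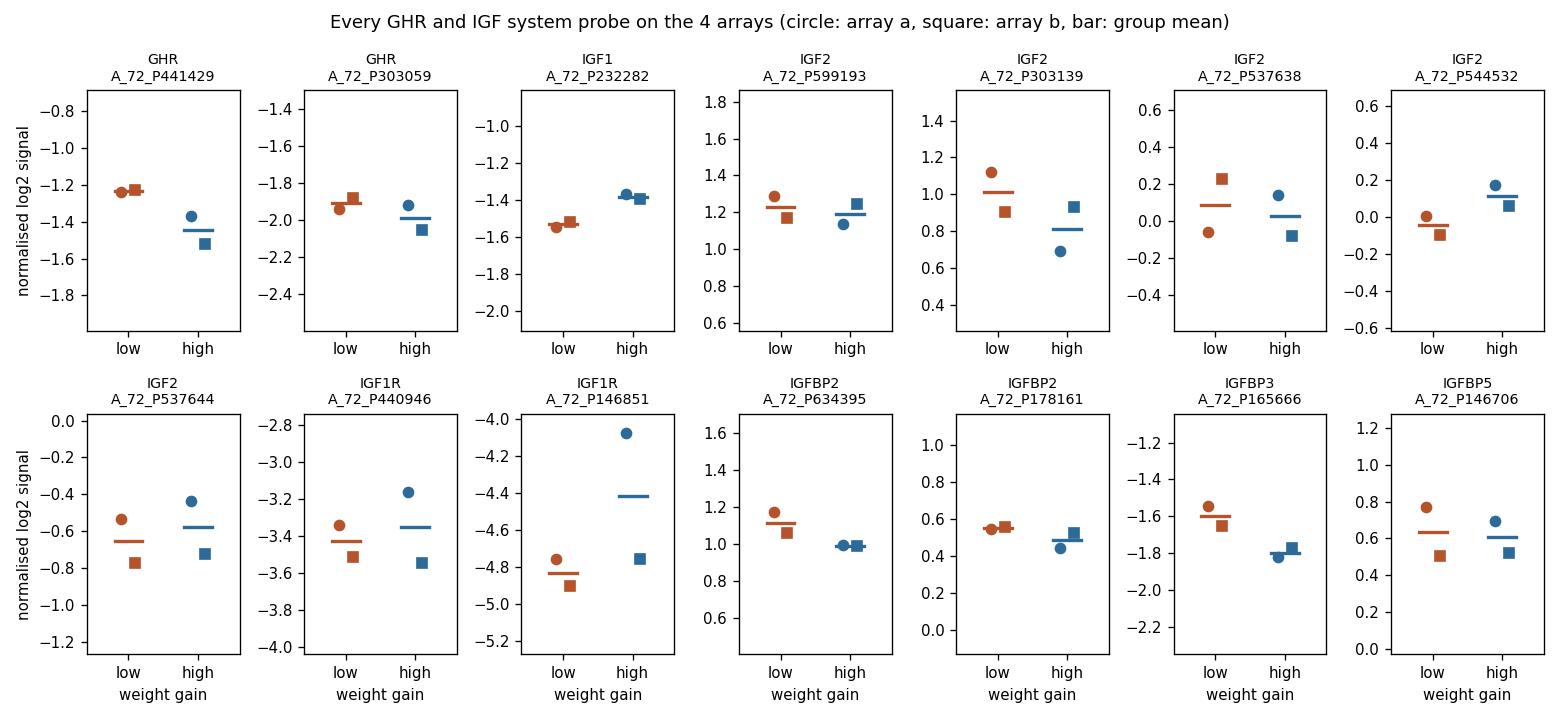
Normalised log2 signal of each of the 14 member probes on the 4 arrays, low gain left of high gain, with array a as a circle, array b as a square and a bar at the group mean. Each panel spans the same log2 range. The arrays of both groups lie apart in 7 panels and overlap in the other 7, where 54.5% of all 33265 tested probes lie apart.

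*GHR*, the receptor for growth hormone, had a higher mean in low gain on both of its probes, although the dimmer one was at -0.048 without scaling between arrays. The brighter probe (A_72_P441429) stood at -1.24 and -1.23 in the low-gain arrays, against -1.37 and -1.52 in the high-gain arrays. Both low-gain arrays thus lay above both high-gain arrays, by a log2 difference of 0.21 ± 0.11 (SE with 2 arrays in each group, limma adjusted p = 0.384), or 1.16-fold. This interval ran from -0.09 to 0.51, so that a level up to 1.43-fold higher in low gain was compatible with these arrays. The dimmer probe (A_72_P303059) stood at -1.94 and -1.88 in low gain, against -1.92 and -2.05 in high gain. The groups overlapped there, with a difference of 0.08 ± 0.11 (limma adjusted p = 0.718). Before scaling, the brighter probe also overlapped, at 174 and 198 units in low gain against 187 and 164 units in high gain. The 75th percentile subtracted from each array was 8.68 and 8.86 (log2) in low gain and 8.92 and 8.88 in high gain.

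*IGF1*, the main IGF after birth, had a lower mean in low gain. Its probe (A_72_P232282) stood at -1.55 and -1.52 in low gain, against -1.37 and -1.40 in high gain. The arrays within each group lay within 0.03 of each other, and the groups did not overlap. The difference was -0.15 ± 0.10 (SE, 2 arrays a group, limma adjusted p = 0.466), which is 1.11-fold lower, and its interval ran from -0.42 to 0.12. The differences of *GHR* and *IGF1* thus lay on opposite sides of 0, neither past the test.

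*IGF2*, the growth factor best known for its role before birth, was read by 5 probes that did not share a direction. The brightest (A_72_P599193) stood at 1.29 and 1.17 in low gain, against 1.14 and 1.24 in high gain, and the groups overlapped. Its difference was 0.04 ± 0.11 (limma adjusted p = 0.873). The second (A_72_P303139) stood at 1.12 and 0.91 in low gain against 0.69 and 0.93 in high gain, a difference of 0.20 ± 0.15 (limma adjusted p = 0.509). The fourth (A_72_P544532) was the only 1 of the 5 whose groups did not overlap, at 0.01 and -0.10 in low gain against 0.17 and 0.06 in high gain, with a difference of -0.16 ± 0.11 (limma adjusted p = 0.483). The remaining probes differed by 0.06 (A_72_P537638) and -0.07 (A_72_P537644), and both overlapped. Of the 5 probes, 3 were higher and 2 lower in low gain, a span of 0.36 between probes of 1 transcript, and their mean difference was 0.01.

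*IGF1R*, the receptor kinase for both growth factors, had a lower mean in low gain on both probes, and high-gain array a decided the size. The brighter probe (A_72_P440946) stood at -3.34 and -3.51 in low gain, against -3.16 and -3.54 in high gain, and the groups overlapped. Its difference was -0.07 ± 0.18 (limma adjusted p = 0.841). The dimmer probe (A_72_P146851) stood at -4.76 and -4.91 in low gain, against -4.08 and -4.76 in high gain. High-gain array a was the high value, and high-gain array b lay within 0.01 of low-gain array a. The difference of -0.42 ± 0.26 (limma adjusted p = 0.454) was the largest among the members, but it was -0.07 without high-gain array a and -0.76 without high-gain array b. This probe was dim, at 15.2 and 15.5 units in low gain and 28.6 and 17.4 units in high gain, where the lowest signal well above background was between 5.52 and 6.72 units on each array. The brighter probe turned to 0.12 without high-gain array a.

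**Figure D2:**
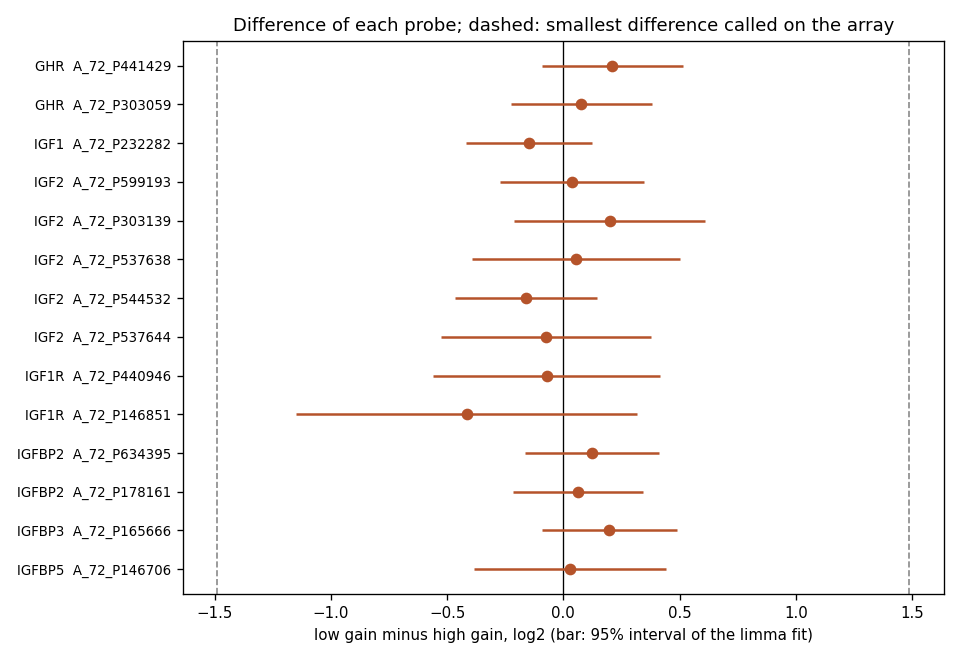
Log2 difference, low gain minus high gain, of each member probe (points) with the 95% interval of the limma fit (bars), beside the smallest difference called on the array (dashed lines at -1.49 and 1.49). Every bar crosses 0, and the dimmer *IGF1R* probe has the widest bar.

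The member genes for binding proteins had slightly higher means in low gain, a direction that *IGFBP2* and *IGFBP5* did not keep without scaling between arrays. *IGFBP3*, which carries most IGF in blood, stood at -1.54 and -1.65 in low gain, against -1.82 and -1.77 in high gain (A_72_P165666). Both low-gain arrays lay above both high-gain arrays, by 0.20 ± 0.11 (SE, 2 arrays a group, limma adjusted p = 0.389), or 1.15-fold, and the interval reached 1.40-fold. *IGFBP2*, a binding protein abundant in early life, stood on its brighter probe (A_72_P634395) at 1.17 and 1.06 in low gain, against 0.997 and 0.989 in high gain. Its dimmer probe (A_72_P178161) stood at 0.54 and 0.56 in low gain, against 0.45 and 0.53 in high gain. Neither probe overlapped between groups, and their differences were 0.12 ± 0.10 (limma adjusted p = 0.559) and 0.06 ± 0.10 (limma adjusted p = 0.748). Without scaling, where the median of all probes was -0.11, these were -0.0031 and -0.062. *IGFBP5*, a binding protein that in mouse and human is made by smooth muscle and fibroblasts, stood at 0.77 and 0.50 in low gain, against 0.70 and 0.52 in high gain (A_72_P146706). Its a arrays lay above its b arrays in both groups, and its difference was 0.03 ± 0.15 (limma adjusted p = 0.929).

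Set against the whole array, the member differences were small. The groups did not overlap for 7 of the 14 probes, against 54.5% of all tested probes, so this count is near the background. Of the 7, 4 were higher in low gain (27.6% of all tested probes) and 3 lower (26.9%). The median absolute difference was 0.10 over the 14 probes and 0.21 over all 33265 tested probes, and 2 of the 14, the brighter *GHR* probe and the dimmer *IGF1R* probe, lay above the median of all probes. The median signed difference was 0.04 over the 7 genes, each read by its brightest probe, and 0.02 over all 2158 named genes tested. The median of the 7 genes was -0.089 without scaling. With 1 array left out it ran from -0.024, without low-gain array a, to 0.16, without low-gain array b. As a scale for these values, the median absolute difference between arrays of the same group was 0.14 in low gain and 0.15 in high gain.

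**Figure D3:**
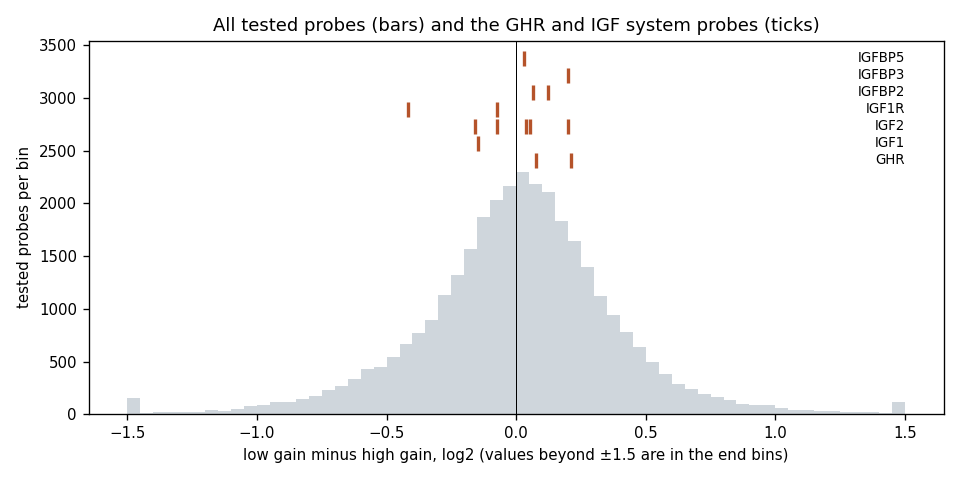
Number of the 33265 tested probes by log2 difference, low gain minus high gain (bars), with the 14 member probes as ticks, a row for each gene. The ticks lie between -0.42 and 0.21, in the middle of the distribution.

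The other measured genes of the system were also short of the threshold. Of 23 listed genes for hormones, further binding proteins and their regulators, 10 were tested and 0 passed in either direction, against 0.417% of named genes, while 2 had an unadjusted p below 0.05, a level that 21.6% of named genes reached. *GH1*, the growth hormone gene itself, differed by -0.54 ± 0.12 (limma adjusted p = 0.190). *STC1*, the gene of stanniocalcin-1, which in human inhibits the protease that frees IGF from IGFBP4, differed by 0.46 ± 0.15 (limma adjusted p = 0.244). Both were dim, the mean level of *GH1* being -3.72 in low gain and -3.18 in high gain, and that of *STC1* -5.34 in low gain and -5.79 in high gain. *IGFALS*, the acid-labile subunit that binds IGFBP3 with IGF in blood, differed by -0.43, and *GHRHR*, the receptor for growth hormone-releasing hormone, by 0.41. Among the remaining binding proteins, *IGFBP4* differed by -0.25, *IGFBP6*, which prefers IGF2, by 0.05 and *IGFBP7*, a related protein of low IGF affinity, by 0.21. With 1 array left out, *IGFALS* ran from -0.73 to -0.12, *GHRHR* from 0.21 to 0.60 and *IGFBP4* from -0.37 to -0.13. The list's median was 0.14, beside 0.02 over all named genes, but 0.025 to 0.20 with 1 array left out and -0.0030 with normexp background correction.

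In the JAK-STAT arm below GHR, 8 of 12 listed genes were tested and 0 passed, against 0.417% of named genes. An unadjusted p below 0.05 was found for 3, a level that 21.6% of named genes reached. These were *STAT5A*, *JAK2* and *PTPN1*. The 3 probes of *PTPN1* differed by -0.27, -0.30 and -0.49. *STAT5A*, a transcription factor that GHR activates, stood at -2.80 and -2.69 in low gain against -1.96 and -2.27 in high gain. It differed by -0.63 ± 0.15 (limma adjusted p = 0.197), with the second probe at -0.36. *JAK2*, the kinase bound to GHR, differed by 0.33 ± 0.10 (limma adjusted p = 0.236) on its brighter probe, but by -0.64 on the other, so that the probes disagreed. *STAT5B*, the close relative of *STAT5A*, differed by 0.00, with its other probe at -0.42. *SOCS2*, a target gene of growth hormone that damps its receptor, differed by -0.17, with the other probe at -0.36. *SOCS3*, another feedback inhibitor, differed by 0.31, and *STAT3*, which cytokine receptors use, by -0.34, with its other 3 probes between -0.23 and 0.20. The list's median was -0.10, and with 1 array left out *STAT3* ran from -0.49 to -0.19, *SOCS3* from 0.15 to 0.47 and *SOCS2* from -0.26 to -0.089.

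In the arms below IGF1R no gene passed either, where 0.417% of named genes did. In the PI3K-AKT-mTOR arm 5 of 26 listed genes were tested, with a median of -0.07. *AKT1*, its central kinase, differed by -0.45 ± 0.19 (limma adjusted p = 0.323), and *GSK3B*, a kinase that AKT inhibits, by 0.21, with its other probe at -0.15. In the RAS-MAPK arm 6 of 18 were tested, with a median of 0.06. The adaptor gene *GRB2* differed by -0.29 (other probe -0.38), *JUN* by 0.29, and *MYC*, a growth-induced transcription factor gene, by 0.29, with its other probes at 0.27 and 0.31. With 1 array left out, *AKT1* ran from -0.67 to -0.23, *GSK3B* from 0.027 to 0.40, *GRB2* from -0.41 to -0.18, *JUN* from 0.15 to 0.44 and *MYC* from 0.13 to 0.45. The medians of both arms changed sign, the first to 0.027 without high-gain array a and the second to -0.065 without scaling. Of the 11 tested genes in these arms, 0 had an unadjusted p below 0.05, a level that 21.6% of named genes reached.

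Among the genes of other growth and metabolic hormones, 9 of 15 listed were tested, and 0 passed, against 0.417% of named genes. Their median was 0.18, but -0.055 without low-gain array a and -0.015 with normexp. *DIO1*, a deiodinase that activates thyroid hormone, differed by 0.68 ± 0.16 (limma adjusted p = 0.195). It was the only 1 of the 9 with an unadjusted p below 0.05, a level that 21.6% of named genes reached. *ADIPOQ*, the adiponectin gene of fat cells, differed by -0.96 ± 0.39 (limma adjusted p = 0.303), with its other probe at -1.66, and it stood at -1.49 without low-gain array a and at -0.43 without low-gain array b.

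**Figure D4:**
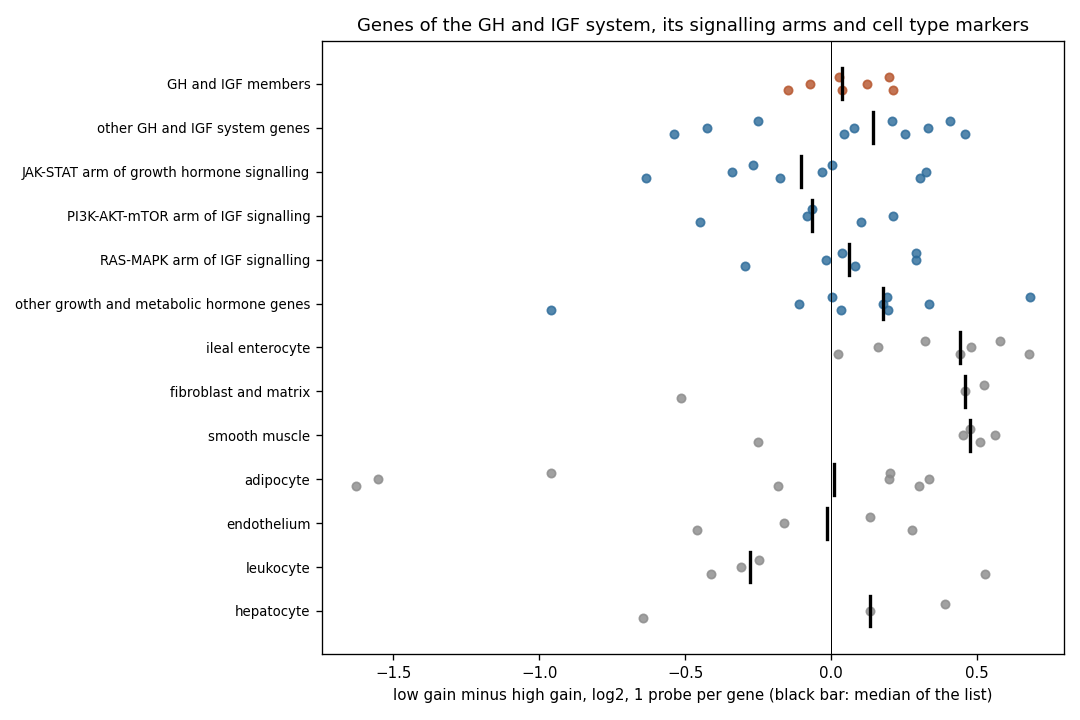
Log2 difference, low gain minus high gain, of each tested gene by its brightest probe (points) and the median of each list (black bars). The 7 member genes lie between -0.15 and 0.21, and the enterocyte and smooth muscle markers lie mostly above 0.

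Markers of epithelium, muscle and matrix had larger median differences than the members, though this contrast was not tested. All 7 measured enterocyte markers had higher means in low gain (median 0.44), as had 4 of 5 smooth muscle markers (median 0.48) and 2 of 3 fibroblast and matrix markers (median 0.46), where 52.7% of all tested probes were higher, and 0 passed the limma test in each list. Over all named genes, 0.417% passed. At an unadjusted p below 0.05 the counts were 4, 4 and 2, against 21.6% of named genes. The matrix marker that was lower in low gain, *THY1*, differed by -0.51. Of the 4 tested leukocyte markers, 3 were lower in low gain and 1 was higher (median -0.28). The endothelium list had a median of -0.01 and the hepatocyte list a median of 0.13. With the variance prior following intensity, 11 of the 34 tested markers of all cell types passed, a count that did not hold without low-gain array a. Of all tested probes, of any brightness, 3.76% passed. Among the 11 markers, *FABP4* (-1.55), *CD163* (-0.41) and *TF* (-0.64) were lower in low gain, and the others were higher. The markers were read by their brightest probes, and the share over named genes read in that way was not computed. Summed over its members on the linear scale, the smooth muscle list stood at 308 and 303 in low gain, against 235 and 233 in high gain, relative to the 75th percentile of each array. Without *DES*, whose other 2 probes were at -0.34 and -0.02, the sums were 141 and 142 in low gain, against 123 and 116 in high gain. The adipocyte list stood at 13.9 and 13.8 in low gain, against 16.7 and 16.8 in high gain. Most of each sum came from *LIPE*, which differed by -0.18, with its other probes at -0.08 and 0.18. Of the 8 adipocyte markers 4 were lower, with a median of 0.01, which was -0.48 without low-gain array a. The markers ran from *PLIN1* (-1.63), which exceeded background well on only 1 low-gain array, and *FABP4* (-1.55) to *LEP* (0.33). The other *FABP4* probes lay between -1.60 and -1.35. *LEP* varied widely within groups, at 0.05 and -2.29 in low gain against -0.81 and -2.10 in high gain. The part of the markers in the values of the IGF system was not tested.

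The genes whose profile over the 4 arrays was nearest to that of *GHR*, among 2157 other named genes, were *DIO2*, *CLDN7* and *CBR1*. Their Euclidean distances from it, after each profile was centred on its own mean, were 0.0338, 0.0410 and 0.0417 log2 units. For *IGF1* they were *SLA-DMB*, *DPM1* and *TFB1M*, at 0.0290, 0.0304 and 0.0309. With 4 arrays, this says little beyond the size of the group difference, which was 0.19 for *DIO2* and -0.12 for *SLA-DMB*.

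**Figure D5:**
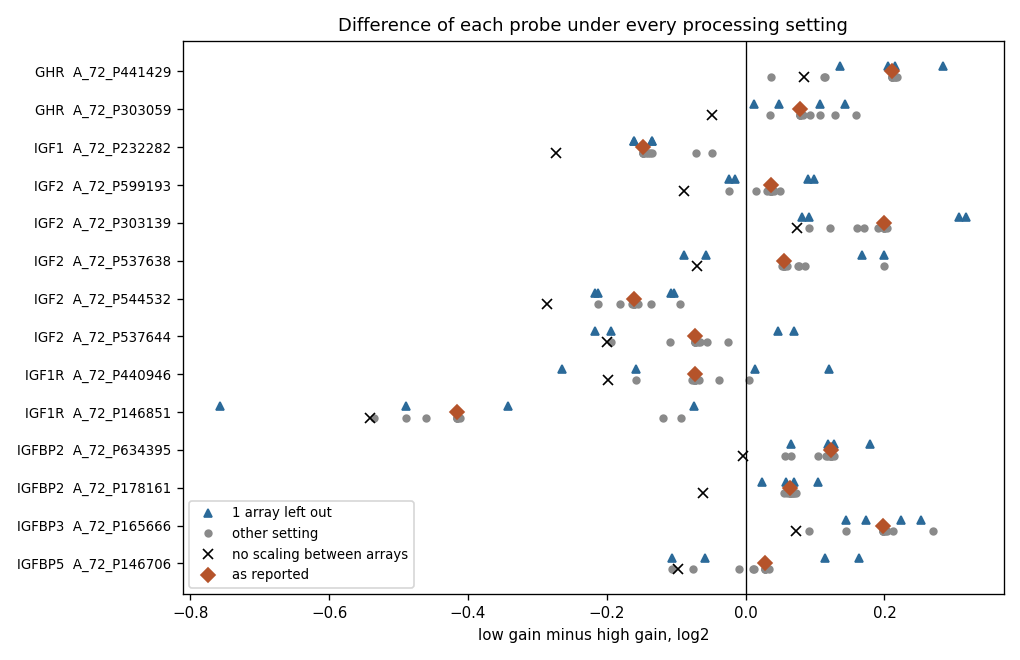
Log2 difference, low gain minus high gain, of each member probe as reported (diamonds), with 1 array left out (triangles), without scaling between arrays (crosses) and under the other settings (circles). The values of 6 probes stay on 1 side of 0, and those of the other 8 lie on both.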

How the data were processed

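Spot intensity, per the file headers, came from Agilent Feature Extraction 10.7.3.1, and the processed signal is linear after that software's background treatment. A log2 table deposited by the authors served as an alternative only. The steps behind it are not given in the sources used here, but against the scanner values its slopes were 1.00 to 1.01 over spots well above background, with correlations of 0.988 and 0.999 in low gain and 0.999 and 0.984 in high gain. Over all non-control spots, each column correlated best with its own array, but high-gain array b correlated better with the column of high-gain array a (0.987) and of low-gain array b (0.985) than with its own (0.982). It was not centred per gene, and the medians of its columns were 5.62 and 5.59 in low gain and 5.67 and 5.60 in high gain.

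Log2 processed signals were scaled to each array's 75th percentile, flagged outlier spots were left out, and spots of 1 probe were averaged. Probes well above background on both arrays of at least 1 group (33265 of 43603) entered the limma fit (version 3.58.1, R 4.3.3, lmFit and eBayes, low minus high gain). P-values were adjusted by Benjamini-Hochberg over these probes, with a threshold of 0.05. The fit was also run on simulated data with planted changes, all larger than any member difference, so that run is no check on differences of that size. Genes were named by RefSeq accession without version against the NCBI table of Sscrofa11.1 (5461 of 5779 probes with an accession matched, naming 2389 genes). Each listed gene was read by its brightest tested probe. The rule named every member probe, and pathway genes that a member's account needs. Of each other list it named genes past the test and up to 4 with the largest difference. *FABP6*, *FABP2* and *EPCAM* were added as epithelial genes, *PTPN1* for its unadjusted p and *LIPE* for its part in a sum. Members and lists were chosen with earlier results of these data known. The letters a and b are not stated to pair samples; deviations of same-letter arrays correlated at -0.037 across probes, so no pairing was used. The number of arrays limits every value.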

Additional observations from a re-analysis of the deposited data

How the results depend on the processing

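There were 15 alternatives, of which 3 were chosen after seeing the data: normexp with bright backgrounds replaced, no scaling, and the intensity trend without low-gain array a. No member probe passed under those with all 4 arrays, where 0% to 3.76% of all tested probes passed. The lowest limma adjusted p there was 0.321, with quantile normalisation. With normexp, signal on all 4 arrays or the letter block, no probe of any gene passed, so the 0 for the members adds nothing there. For member probes, 193 values stayed on the same side of 0 and 21 did not, and the cause was not tested. Part of the 193 was fixed in advance. No filter on dim probes, signal on all 4 arrays, the trend and the letter block leave every member difference as it was. The trend without low-gain array a repeats the differences found without that array. Without scaling, where the median of all probes was -0.11, the dimmer *GHR* probe was at -0.048, *IGF2* at -0.089 (A_72_P599193) and -0.071 (A_72_P537638), *IGFBP2* at -0.0031 and -0.062, *IGFBP5* at -0.097, *IGFBP6* at -0.080 and *STAT5B* at -0.12. *IGFBP5* was also at -0.076 with normexp, -0.010 in the authors' values and -0.11 with the trend and without low-gain array a, where *IGF2* (A_72_P599193) was at -0.024. The brighter *IGF1R* probe was at 0.0043 with bright backgrounds replaced. Means over a gene's probes put *JAK2* at -0.16, *STAT5B* at -0.21 and *IGFBP6* at -0.024. *STC1* was at -0.033 with normexp, and *STAT5B* at -0.0012 with quantile normalisation and -0.017 in the authors' values.

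Leaving out 1 array gave -0.024 to 0.098, -0.089 to 0.20 and -0.22 to 0.070 for the *IGF2* probes A_72_P599193, A_72_P537638 and A_72_P537644. It gave -0.26 to 0.12 for the brighter *IGF1R* probe, -0.11 to 0.16 for *IGFBP5*, -0.036 to 0.13 for *IGFBP6* and -0.021 to 0.028 for *STAT5B*.

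Over the whole array, 80 probes passed as reported. The count was 163 with median centring, 1250 with the trend, 197 with the trend and without low-gain array a, 220 without scaling, 12 with no filter on dim probes and 0 with signal on all 4 arrays. It was 0 with normexp, where 22 spots on each of 2 arrays had bright backgrounds, and 483 with these replaced. The letter as a replicate block gave 0, and leaving out low-gain array a or b gave 36 or 37, high-gain array a or b 0 each. Of the pathway and marker genes, 0 passed as reported, and 11 passed with the trend, 2 with bright backgrounds replaced and 1 each with median centring, without scaling and with the trend without low-gain array a. All of these were markers.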
